A study of Mus musculus with 6 samples.

Results

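The circular RNAs (circRNAs) described here come from the brain-specific angiogenesis inhibitor genes Adgrb1, Adgrb2 and Adgrb3 and the latrophilin genes Adgrl1, Adgrl2 and Adgrl3, which encode adhesion G protein-coupled receptors. Every circle whose listed host gene is one of these 6 was taken, which gave 52 of the 11171 circles in the table. The hosts were chosen by name, in the knowledge of how many circles and how much junction signal they carry in these libraries, so circle numbers and levels are given as a description of the family. Adgrb3 had 29 circles, Adgrl3 had 18, Adgrl2 had 4 and Adgrb1 had 1. Adgrb2 and Adgrl1 had no circle in the table, and no circle listed under another host, several hosts or no host lay at their loci.

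Adhesion GPCRs join a long extracellular region to a bundle of membrane-spanning helices, and most cut themselves at a site just outside the membrane so that the released fragment stays bound to the rest. The angiogenesis inhibitor receptors carry thrombospondin repeats outside the cell and bind C1q-like proteins and reticulon 4 receptors, while latrophilins carry lectin and olfactomedin-like domains and bind teneurins and FLRT proteins. Both groups are known in cortex for their part in forming and keeping synapses. A circRNA arises when the end of an exon is spliced back to the start of the same or an earlier exon, and it is recognised by reads that cross this back-spliced junction, which does not exist in the linear mRNA.

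The libraries came from the cortex of male C57BL/6 mice (C57BL/6J in the study's methods) that were 6 weeks old, 3 mice in each group with 1 library per mouse. Pilo mice received scopolamine methyl bromide and then pilocarpine, a muscarinic agonist, to bring on status epilepticus, which was ended with diazepam, and their cortex was taken 24 h later. Control mice received saline in place of each drug. The model therefore holds the seizures together with the drugs given to start and stop them. Values are SRPBM, junction reads scaled to the number of mapped reads of the library, and 1 junction read was worth 8.55 to 10.3 SRPBM. Libraries held 35598 to 41797 junction reads in Control and 32504 to 56516 in Pilo.

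The sequence at the back-spliced junction identifies each circle, since it is the stretch its junction reads cross. Junctions are shown for the dominant circle of each host, meaning the one with the highest mean SRPBM, for the second circle of Adgrb3, and for the Adgrl3 circle that was read in Pilo only. Each runs 5′ to 3′ along the RNA, with the last 25 bases of the donor exon in lower case and the first 25 bases of the acceptor exon in capitals, so that the joint lies at the change of case. Bases were taken from GENCODE M21 transcripts on GRCm38 and written as DNA.
Adgrb3 mmu_circ_0005197: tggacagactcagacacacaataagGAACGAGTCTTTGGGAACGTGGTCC
Adgrb3 mmu_circ_0005196: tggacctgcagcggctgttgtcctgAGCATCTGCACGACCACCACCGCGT
Adgrl3 mmu_circ_0008289: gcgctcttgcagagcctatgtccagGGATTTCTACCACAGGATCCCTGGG
Adgrl3 mmu_circ_0008294: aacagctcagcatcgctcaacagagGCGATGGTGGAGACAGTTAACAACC
Adgrl2 mmu_circ_0006646: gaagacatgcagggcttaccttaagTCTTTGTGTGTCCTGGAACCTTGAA
Adgrb1 mmu_circ_0002956: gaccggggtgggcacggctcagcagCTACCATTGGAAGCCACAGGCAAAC

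The Adgrb3 circle mmu_circ_0005197 joins exon 20 back to exon 18 at chr1:25221760-25228547 on the minus strand of GRCm38, and its 3 exons make a circle of 334 nt. The Adgrb3 circle mmu_circ_0005196 lies next to it at chr1:25126641-25131401 and holds exons 21 to 23. The Adgrl3 circle mmu_circ_0008289 spans chr5:81646410-81663424 on the plus strand and holds exons 11 to 14, which make 632 nt. The Adgrl3 circle mmu_circ_0008294 spans chr5:81688509-81771680 with exons 15 to 25 and 1675 nt. The Adgrl2 circle mmu_circ_0006646 spans chr3:148849766-148859533 on the minus strand with exons 5 to 9 and 1424 nt. The Adgrb1 circle mmu_circ_0002956 is exon 2 alone at chr15:74528930-74529940 on the plus strand, 1011 nt long, with 784 coding bases that begin at the start codon.

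The second circle of Adgrb3 is also the shortest of the family, at 288 nt, and all of it can be shown. Its exons code for codons 939 to 1034 of the 1522 codons of the receptor, and its length is divisible by 3. The capitals mark the 25 bases after the joint, as in the junction above, and the last base is spliced to the first.
Adgrb3 mmu_circ_0005196, whole circle: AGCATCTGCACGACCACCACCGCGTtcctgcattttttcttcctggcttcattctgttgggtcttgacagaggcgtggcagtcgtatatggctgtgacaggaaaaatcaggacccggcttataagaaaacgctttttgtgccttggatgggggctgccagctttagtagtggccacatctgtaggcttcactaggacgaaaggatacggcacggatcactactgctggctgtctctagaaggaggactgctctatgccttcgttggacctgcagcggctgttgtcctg

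Both ends of all 52 circles fell exactly on annotated exon boundaries of their host, against 82.5% of all circles in the table. Circles without a single listed host could not be placed and count in that share as not placed, while every family circle had a single listed host. Family circles held a median of 4.5 exons, against 4 over the 9216 placed circles of the table, and a median spliced length of 703 nt against 610 nt. They reached farther along the genome: the median distance between the ends was 30258.5 bp against 14424.5 bp, and 7 of 52 circles (13.5%) spanned over 100 kb, against 3.73%. The intron before the first exon had a median of 25084 bp in the family and 10229 bp over the table, and the intron after the last exon 24078 bp against 8593 bp. The host genes themselves are long, 804996 bp for Adgrl3 and 762232 bp for Adgrb3, against 174973 bp for Adgrl2 and 73271 bp for Adgrb1. Circles of 1 gene share its introns and its exon boundaries, so these are descriptions of 4 genes.

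Coding exons made up 48 of the 52 circles entirely, and the other 4 (1 of Adgrb1 and 3 of Adgrl3) began in the 5′ untranslated region and held the start codon. A spliced length divisible by 3 was found in 16 of 52 circles (30.8%), against 38.0% of the placed circles of the table. Of the circles named above, mmu_circ_0005196 and the Adgrb1 circle had such a length, and mmu_circ_0005197, mmu_circ_0008289, mmu_circ_0008294 and mmu_circ_0006646 did not.

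Adgrb3 (ENSMUSG00000033569) was the fourth-ranked host of the table by number of circles, with 3 hosts above it and a median of 2 circles per listed host. Its 29 circles fell into 3 blocks of exons, and no circle joined one block to another. The first block, exons 4 to 17, held 21 circles with 240 junction reads over the 6 libraries. The second, exons 18 to 20, held the dominant circle alone, with 133 reads. The third, exons 21 to 30, held 7 circles with 123 reads. The blocks are bounded by the 3 longest introns of the gene, of 266138 bp before exon 4, 167888 bp before exon 18 and 90358 bp before exon 21, which no circle crossed. The next longest introns, of 27113 bp, 26855 bp and 24415 bp, were crossed by 8, 7 and 9 circles.

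**Figure D1:**
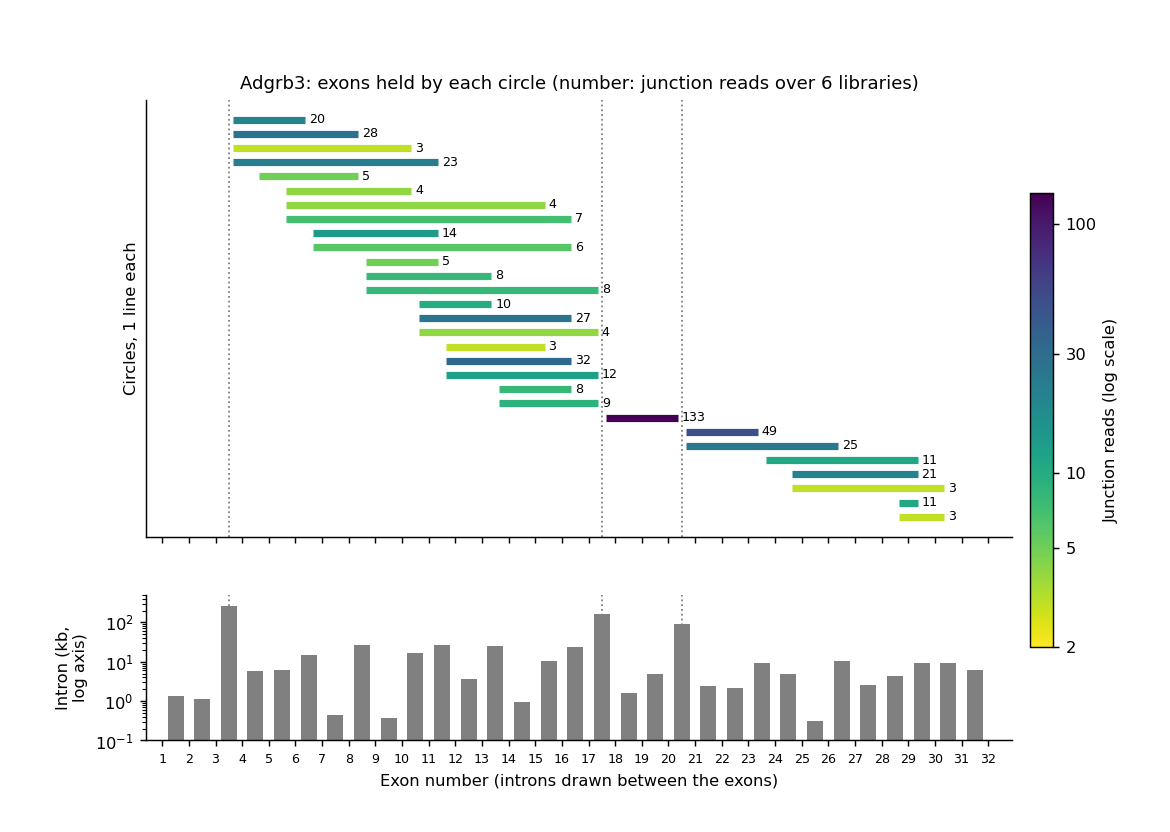
Each line of the upper panel is 1 of the 29 Adgrb3 circles, drawn over the exons it holds (horizontal axis, exon number in the 32-exon transcript), with its junction reads over the 6 libraries beside it and as colour. The lower panel gives the length of each intron in kb on a log axis. Dotted lines mark the 3 longest introns, each of which lies just before 1 of the 3 blocks of circles. The circle with 133 reads stands alone between exons 18 and 20.

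Within the blocks the Adgrb3 circles reused their ends. The 29 circles had 13 acceptor ends and 13 donor ends, and 28 of them shared an end with another circle. The end of exon 16 was the donor of 5 circles and the start of exon 4 the acceptor of 4. The dominant circle mmu_circ_0005197 was the exception: neither its acceptor at exon 18 nor its donor at exon 20 appeared in another circle, and it lies between introns of 167888 bp and 90358 bp. Its exons code for codons 827 to 938. Exon 4, the acceptor of 74 reads in 4 circles, and exon 21, the acceptor of 74 reads in 2 circles, both follow one of the 3 longest introns, as does exon 18.

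Adgrl3 (ENSMUSG00000037605) had 18 circles in 2 blocks, exons 3 to 9 with 7 circles and 78 reads, and exons 11 to 25 with 11 circles and 233 reads. The 81-nt exon 10 was in no circle, and the introns on its sides, of 48078 bp and 85466 bp, were crossed by none. Length alone did not mark the uncrossed introns here, since the second longest intron of the gene, 112239 bp before exon 4, was crossed by the circle mmu_circ_0008281 with 9 reads, and the 77206-bp intron was crossed by 1 circle. All 18 circles shared an end with another circle. The start of exon 11 was the acceptor of 4 circles with 148 reads, among them the dominant circle, and the end of exon 25 was the donor of 5 circles with 36 reads. One of these 5, mmu_circ_0008298 with 2 reads, begins at an exon of another transcript.

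**Figure D2:**
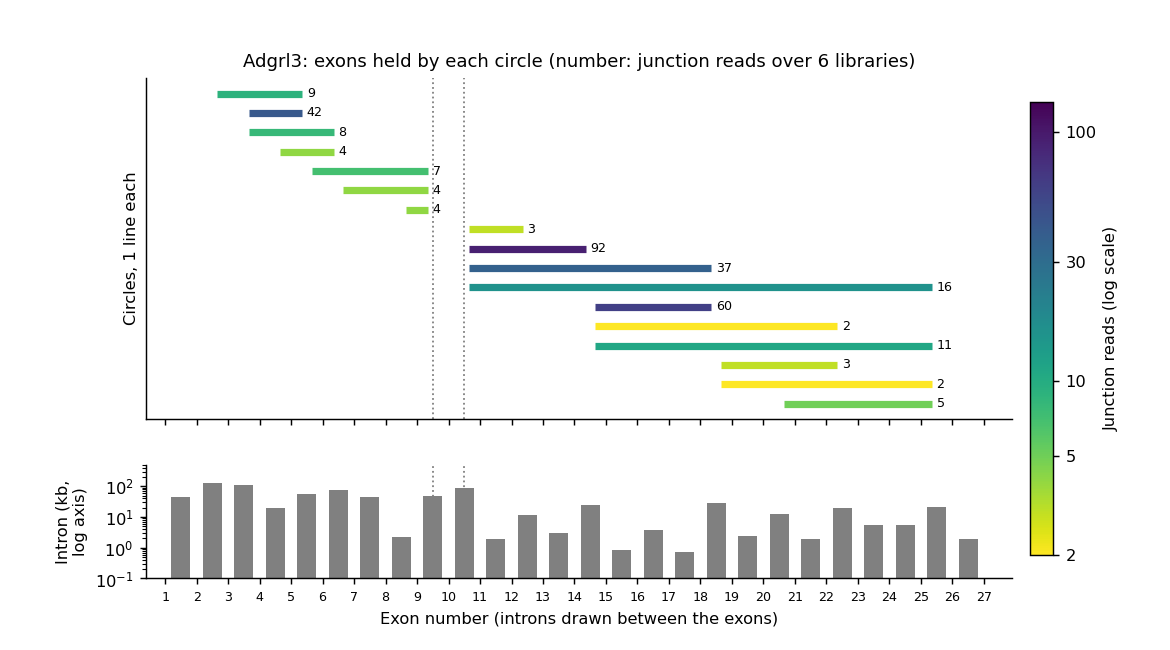
Each line of the upper panel is 1 of the 17 Adgrl3 circles that fit the 27-exon transcript, drawn over the exons it holds (horizontal axis, exon number), with its junction reads over the 6 libraries beside it and as colour, while mmu_circ_0008298 begins at an exon of another transcript and is not drawn. The lower panel gives intron lengths in kb on a log axis, and dotted lines mark the introns on the sides of exon 10, which no circle held or crossed.

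Adgrl2 (ENSMUSG00000028184) had 4 circles, and 3 of them began at exon 5 and ended at exon 8, 9 or 10. The fourth, mmu_circ_0006648 with 2 reads, ran from exon 3 to exon 5. Exon 5 of Adgrl2 and exon 9 of Adgrl3 are counterparts, both 801 nt long with 72.8% identical bases. In Adgrl2 exon 5 was the acceptor of 25 of the 27 reads, while in Adgrl3 exon 9 was the acceptor of 4 reads and the donor of 15. The dominant circles of both genes nevertheless end at counterpart exons, the 39-nt exon 9 of Adgrl2 and the 39-nt exon 14 of Adgrl3, which had 64.1% identical bases against 42.2% for the next best exon. These reads are few, and the comparison of the ends carries no test.

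Junction reads of the family numbered 852 over the 6 libraries, 58.2% of them in Adgrb3, 36.5% in Adgrl3, 3.17% in Adgrl2 and 2.11% in Adgrb1. Each read crosses a single joint, so the length of a circle does not enter the counts. Adgrb3 ranked 74th and Adgrl3 141st among the 3469 listed hosts by summed SRPBM, and Adgrl2 and Adgrb1 1280th and 1581st. Adgrb3 was above Adgrl3 in 5 of 6 libraries, Adgrl3 above Adgrl2 in 6 of 6, and Adgrl2 above Adgrb1 in 4 of 6, so the order within the first and the last of these pairs was not the same in every library. Most of the family was thinly covered: 31 of 52 circles had at most 10 reads in all. Among all 11171 circles 7592 did, and the median was 5 reads per circle against 8 in the family. In the family 15 circles were read in 1 library (28.8%, against 45.4% over the table), and 6 in all 6 libraries (11.5%, against 13.9%).

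The share of all junction reads that belonged to the family was 0.272%, 0.278% and 0.306% in Control libraries 1 to 3 and 0.354%, 0.377% and 0.393% in Pilo libraries 1 to 3. Every Pilo share was above every Control share, while the 95% Wilson intervals, which cover counting error only, ran from 0.229% to 0.338% in Control 2 and from 0.295% to 0.424% in Pilo 1 and so overlapped. As numbers of circles, 17, 20 and 20 were read in Control and 24, 33 and 33 in Pilo. Pilo 2 and Pilo 3 held the most junction reads over all circles, and Pilo 1 held the fewest. Circles of the whole table numbered 4624, 4288 and 4659 in Control 1 to 3 and 3989, 5052 and 5976 in Pilo 1 to 3. With every library thinned to 32504 junction reads, the means of 100 draws were 15.8, 18.8 and 17.8 family circles in Control and 24.0, 27.3 and 25.1 in Pilo. Thinning evens out the total of junction reads, whether it differs through sequencing depth or through circRNA content, and these were not told apart. No p is given for the family shares and counts, because the members were chosen with them known. In cortex as a whole, fewer cells of a type and less RNA per cell cannot be told apart.

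Summed over all circles of a host, Adgrb3 gave 393, 502 and 732 SRPBM in Control 1 to 3 (mean 542 ± 173, SD, n = 3) and 692, 1017 and 1108 in Pilo 1 to 3 (939 ± 218). Control 3 lay above Pilo 1, so the groups overlapped. The log2 fold change on log2(SRPBM + 17.1) was 0.79 with a standard error of 0.27, an unadjusted p of 0.00865 and a Benjamini-Hochberg adjusted p of 0.728 in limma over 2157 hosts. It did not reach the threshold used by the study, which asks for 1.5 or more on the log2 scale together with an unadjusted p under 0.05.

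Adgrl3 gave 504, 372 and 284 SRPBM in Control (387 ± 111) and 403, 482 and 736 in Pilo (540 ± 174). The groups overlapped, with Control 1 above both Pilo 1 and Pilo 2, and the log2 fold change was 0.46 (standard error 0.29, limma adjusted p 0.854). Adgrl2 gave 59.8, 46.5 and 34.5 SRPBM in Control and 62.0, 43.8 and 0 in Pilo, 27 reads in all, with a log2 fold change of -0.54 (standard error 0.65, limma adjusted p 0.906). Its sign rested on Pilo 3, where no Adgrl2 junction was read: without that library the log2 fold change was 0.14. Adgrb1 gave 0, 0 and 51.7 SRPBM in Control and 31.0, 0 and 77.9 in Pilo, 18 reads in all, with a log2 fold change of 0.65 (standard error 0.75, limma adjusted p 0.905). The Adgrb1 value came to 0.077 without Pilo 3 and to 1.32 without Control 3.

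**Figure D3:**
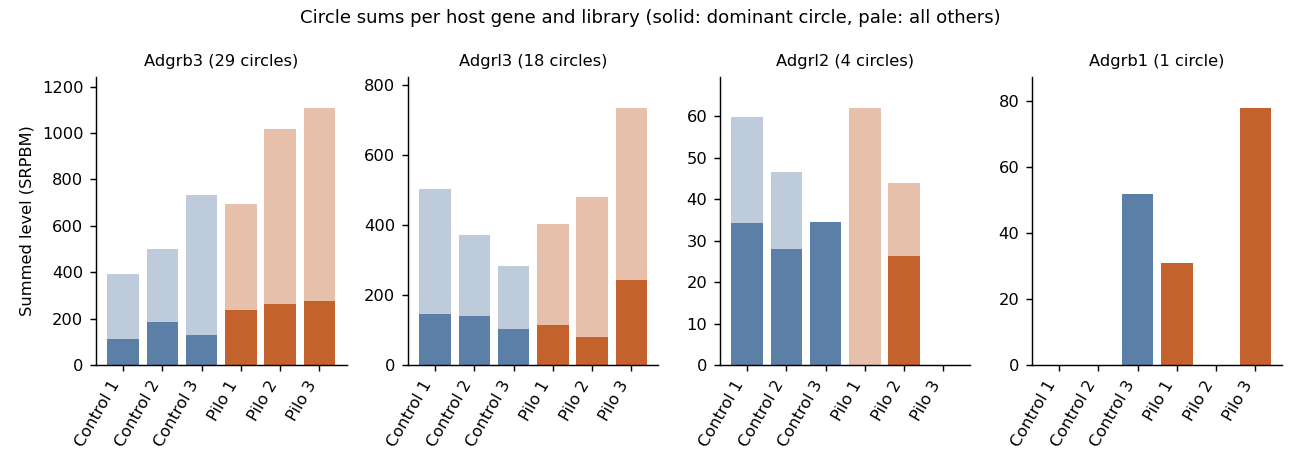
Bars give the summed SRPBM of all circles of a host in each library (blue Control, orange Pilo), with the dominant circle as the solid part and all other circles as the pale part, and each panel has its own scale from 0. The Adgrb3 sum was 393 to 732 in Control and 692 to 1108 in Pilo, while the other hosts overlapped more widely.

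No host of the family passed the study's threshold in either direction, where 1.53% of the 2157 hosts passed it as higher in Pilo and 0.371% as lower. Adgrb3 was the 1 host of 4 with an unadjusted p under 0.05, against 6.17% of all hosts, and its limma p was 0.0740 without Control 1. None of the 4 had all Pilo libraries above or all below the Control libraries, against 10.7% and 1.95% of hosts. The median log2 fold change over all hosts was 0.20, and 0.02 once the libraries were brought to equal totals. Over all circles the same medians were 0.17 and 0.01. On the equal totals, the log2 fold change was 0.57 for the Adgrb3 sum and 0.24 for the Adgrl3 sum. The Adgrb3 sums were then 424, 575 and 772 in Control and 782, 943 and 859 in Pilo. They no longer overlapped, by a narrow gap between 772 in Control and 782 in Pilo. The shares of 10.7% and 1.95% hold for sums before rescaling. No such share is given for the equal totals, so this separation has no comparison among all hosts.

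By block, the Adgrb3 sums of exons 4 to 17 were 145, 205 and 413 SRPBM in Control and 258, 517 and 597 in Pilo, and the groups overlapped. Exons 21 to 30 gave 137, 112 and 190 SRPBM in Control and 196, 237 and 234 in Pilo, with every Pilo library above every Control library by a narrow gap between Control 3 and Pilo 1. All Adgrb3 circles but the dominant one summed to 400 ± 176 SRPBM in Control and 680 ± 199 in Pilo, a ratio of 1.70, beside 1.82 for the dominant circle. In Adgrl3, exons 3 to 9 gave 94.0, 102 and 34.5 SRPBM in Control and 124, 184 and 164 in Pilo, with no overlap, and exons 11 to 25 gave 410, 270 and 250 against 279, 298 and 571, with overlap. The blocks were drawn from these circles, so their sums are a description without a test. Among all tested host sums, 10.7% had every Pilo library above every Control library.

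The dominant Adgrb3 circle mmu_circ_0005197 was read 133 times. Its levels were 111, 186 and 129 SRPBM in Control (142 ± 39.1) and 238, 263 and 277 in Pilo (259 ± 19.9). All 3 Pilo libraries were above all 3 Control libraries, and the Pilo libraries lay closer together than the Control libraries. The log2 fold change was 0.82 with a standard error of 0.30 (unadjusted p 0.0145, limma adjusted p 0.838 over 4271 circles), under the 1.5 of the study's threshold. It was 0.61 after rescaling to equal totals, and without Control 1 the unadjusted limma p was 0.0616. The next circle along the gene, mmu_circ_0005196, gave 25.6, 93.0 and 103 SRPBM in Control and 72.3, 96.4 and 51.9 in Pilo, with a log2 fold change of 0.10 (standard error 0.48) that became -0.07 after rescaling to equal totals. The circles mmu_circ_0005197 and mmu_circ_0005196 thus had unlike values in the same libraries. A further circle, mmu_circ_0005195 with 25 reads, is named here because it shares its acceptor at exon 21 with mmu_circ_0005196. It gave 34.2, 0 and 51.7 SRPBM in Control and 31.0, 52.6 and 51.9 in Pilo (log2 fold change 0.65, standard error 0.63). Differences between these circles were not tested.

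Adgrb3 circles of the first block that were read 27 and 28 times had larger log2 fold changes with larger errors. The circle of exons 11 to 16, mmu_circ_0005204, gave 0, 0 and 77.5 SRPBM in Control and 51.6, 43.8 and 69.2 in Pilo (log2 fold change 1.24, unadjusted p 0.0939). The circle of exons 4 to 8, mmu_circ_0005217, gave 17.1, 0 and 60.3 SRPBM in Control and 41.3, 70.1 and 60.6 in Pilo (1.04, p 0.114). In both, Control 3 stood at the Pilo level. The circle of exons 12 to 16, mmu_circ_0005203, with 32 reads, went the other way, with 34.2, 46.5 and 86.1 SRPBM in Control and 0, 35.1 and 77.9 in Pilo (log2 fold change -0.66, standard error 0.64). These 3 were named after their values were seen.

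The dominant Adgrl3 circle mmu_circ_0008289, with 92 reads, gave 145, 139 and 103 SRPBM in Control (129 ± 22.7) and 114, 78.9 and 242 in Pilo (145 ± 86.1). The highest and the lowest value were both in Pilo, and the log2 fold change was 0.03 (standard error 0.39), or -0.18 after rescaling. The circle of exons 15 to 18, mmu_circ_0008292, gave 145, 18.6 and 94.7 SRPBM in Control and 41.3, 96.4 and 130 in Pilo (log2 fold change 0.20, standard error 0.54). The circle of exons 11 to 18, mmu_circ_0008290, which shares its acceptor with the first and its donor with the second, gave 85.5, 46.5 and 34.5 SRPBM in Control and 62.0, 17.5 and 86.5 in Pilo (-0.08, standard error 0.54). Those 3 circles spread as widely within groups as between them, and the sign of each turned when a library was left out. The circle of exons 4 and 5, mmu_circ_0008282, holds the start codon and gave 68.4, 65.1 and 17.2 SRPBM in Control and 51.6, 61.4 and 112 in Pilo (0.51, standard error 0.51).

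The Adgrl3 circle mmu_circ_0008294, of exons 15 to 25, was read in no Control library. In Pilo it gave 41.3, 26.3 and 34.6 SRPBM, which is 4, 3 and 4 reads. Set against a floor of 3 reads in each Control library, the Pilo mean (34.1 SRPBM) was 1.29-fold higher. The floor is a chosen value, and a value of 0 may stand for 1 read. The fitted log2 fold change was 1.57 with a standard error of 0.56 (unadjusted p 0.0121, limma adjusted p 0.838) and depends on the pseudocount. The circle entered the test through its Pilo libraries alone. Both of its ends were read in Control in other circles, the acceptor at exon 15 in mmu_circ_0008292 and the donor at exon 25 in mmu_circ_0008291, which gave 34.2, 37.2 and 17.2 SRPBM in Control and 0, 35.1 and 17.3 in Pilo.

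In Adgrl2 the dominant circle mmu_circ_0006646 gave 34.2, 27.9 and 34.5 SRPBM in Control and 0, 26.3 and 0 in Pilo, 14 reads in all. Every Pilo library was below every Control library, with 3 reads each in Control 2 and Pilo 2, and the log2 fold change was -1.08 with a standard error of 0.63 (unadjusted p 0.106, limma adjusted p 0.922). The next circle, mmu_circ_0006645, gave 25.6, 18.6 and 0 SRPBM in Control and 31.0, 0 and 0 in Pilo (-0.30, standard error 0.61). Neither circle had more than 4 reads in a library. The single Adgrb1 circle mmu_circ_0002956 was absent from the reads of 3 libraries, Control 1, Control 2 and Pilo 2.

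**Figure D4:**
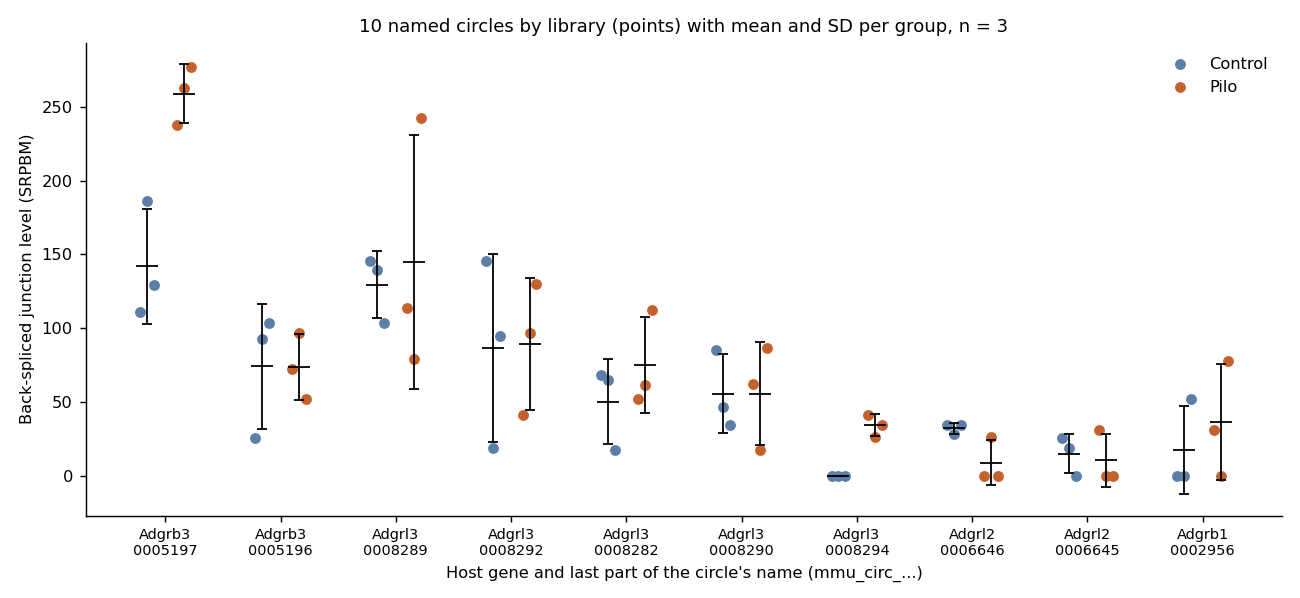
Points are the SRPBM of 10 circles in each library (blue Control, orange Pilo), with the group mean and SD as black bars (n = 3), and labels give the host and the end of the circle name. For mmu_circ_0005197 the Pilo points lie at 238 to 277, all above the Control points at 111 to 186, for mmu_circ_0008294 all Control points are at 0, and for mmu_circ_0006646 the Pilo points lie below the Control points.

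Of the 52 circles, 24 were above 0 in at least 3 libraries and were tested, 12 of Adgrb3, 9 of Adgrl3, 2 of Adgrl2 and 1 of Adgrb1. The study's threshold was passed by 1 as higher in Pilo, mmu_circ_0008294, where 1.26% of 4271 tested circles passed it, and by none as lower, against 0.304%. Since mmu_circ_0008294 entered the test only because all 3 Pilo libraries held it, its call and its p are no evidence of a difference. Among all tested circles, 54 passed as higher and 13 as lower, and 37 and 25 did so after rescaling to equal totals. An unadjusted p under 0.05 was found for 2 of the 24, mmu_circ_0005197 and mmu_circ_0008294, against 5.2% of all tested circles, and the first of these is the 1 that entered through both groups. The same 2 had all Pilo libraries above the Control libraries, against 8.94%, and 1, mmu_circ_0006646, had all Pilo libraries below, against 2.11%. For mmu_circ_0008294 this separation was likewise fixed by its entry through Pilo alone and is no evidence of a difference. No circle of the table had an adjusted p under 0.05 in limma, and 0.838 was the smallest. The median log2 fold change of the 24 was 0.49, and 0.37 after rescaling, with 16 (66.7%) and 14 (58.3%) above 0. Over all tested circles 60.5% were above 0, and 50.4% after rescaling.

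Single libraries moved these counts. Without Control 3, mmu_circ_0005204 and mmu_circ_0005217 passed as well, with log2 fold changes of 2.06 and 1.60, so that 3 circles were called, while the calls among all circles rose from 54 to 104. Without Pilo 1, mmu_circ_0008294 came to 1.47 and none was called as higher. Without Pilo 2, mmu_circ_0006646 came to -1.52 and was called as lower, while such calls among all circles rose from 13 to 41. The values left in Control for mmu_circ_0005204 without Control 3 were all 0, as were those left in Pilo for mmu_circ_0006646 without Pilo 2. Each then stood in the test through a single group, so these calls are no evidence of a difference.

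**Figure D5:**
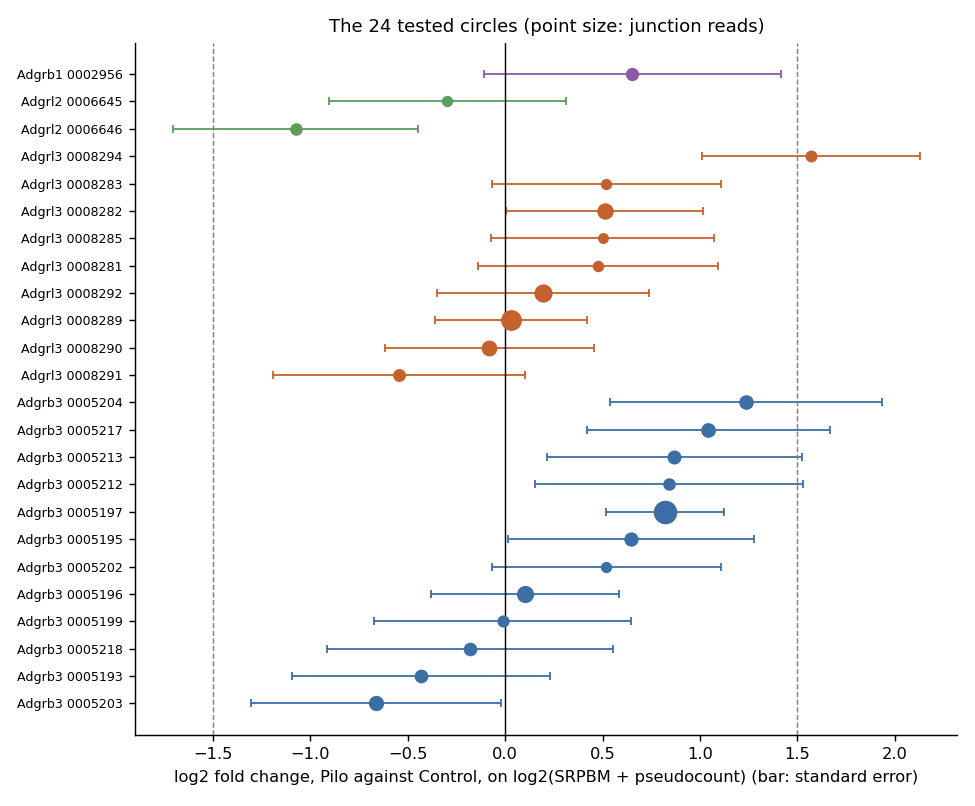
Points are limma log2 fold changes of the 24 tested circles, Pilo against Control, on log2(SRPBM + 17.1), with the standard error as bars, point size by junction reads and colour by host, and dashed lines stand at 1.5 and -1.5. The point of mmu_circ_0008294 lies past the right line at 1.57, and the largest point, mmu_circ_0005197, lies at 0.82 with the smallest error of the family.

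The dominant circle held a modest part of its host. In Adgrb3, mmu_circ_0005197 carried 28.3%, 37.0% and 17.6% of the host's SRPBM in Control and 34.3%, 25.9% and 25% in Pilo, and in Adgrl3, mmu_circ_0008289 carried 28.8%, 37.5% and 36.4% against 28.2%, 16.4% and 32.9%. Over the 1046 hosts with at least 2 circles and a sum above 0 in every library, the median share was 61.5%. Those hosts were not matched for number of circles, which was 29 in Adgrb3 and 18 in Adgrl3 against a median of 2 per listed host. The group means differed by 0.748 percentage points in Adgrb3 (exact permutation test, two-sided, p = 1) and by -8.39 points in Adgrl3 (exact permutation p = 0.2), and the adjusted p was 1 for both, where 0.1 is the smallest p that 3 against 3 libraries allow. The Wilson interval of a single share was wide, from 11% to 27.1% in Control 3 and from 25.4% to 50.4% in Control 2 for Adgrb3.

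Circles of the wider pathway were looked up as lists. Of 23 other adhesion GPCR genes, only Adgra1 and Adgre1 had a circle, 1 each, read in Pilo 1 alone at 20.7 and 31.0 SRPBM. Of 22 genes for extracellular partners, 10 had circles, 65 in all, and 7 hosts were tested. None passed the study's threshold, and their median log2 fold change was 0.24 beside 0.20 for all hosts. Of these 7, 1 had an unadjusted p under 0.05, against 6.17% of all tested hosts. It was Rtn4rl1, a reticulon 4 receptor family gene with 2 circles (0, 0 and 25.8 SRPBM in Control, 20.7, 78.9 and 60.6 in Pilo, log2 fold change 1.496, unadjusted limma p 0.0344, limma adjusted p 0.766). The teneurin genes, whose products bind latrophilins, included Tenm3, with 342, 372 and 310 SRPBM in Control and 506, 430 and 519 in Pilo (log2 fold change 0.49, limma adjusted p 0.834). Its Pilo libraries were all above its Control libraries, against 10.7% of all tested hosts. Tenm4 had 16 circles and 120, 139 and 121 SRPBM in Control and 114, 281 and 294 in Pilo, with overlap (0.68, limma adjusted p 0.834). Tenm2 had a log2 fold change of -0.05, and Tenm1 had 1 circle, read in Pilo 1 alone. Of 22 genes for intracellular partners, 10 had 61 circles and 8 hosts were tested, with none past the threshold and a median of -0.06. Among these Magi2, a scaffold with PDZ domains, had 19 circles and a log2 fold change of 0.33, and Dock4, from the exchange factor family that ELMO proteins partner, had 13 circles and -0.01.

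Cell type marker genes gave few circles. Among the cortical neuron markers, the synaptic vesicle gene Syt1 had 8 circles, which summed to 137, 288 and 129 SRPBM in Control and 145, 289 and 251 in Pilo, with overlap (log2 fold change 0.32, limma adjusted p 0.905). The circles of Rbfox3 and Nrgn were read in Control libraries alone, at up to 34.5 and 27.9 SRPBM. Of 6 astrocyte markers, Slc1a2 alone had circles, at 0 to 17.2 SRPBM in Control and 0 to 34.6 in Pilo. None of 6 oligodendrocyte, 6 microglia or 6 endothelial markers had a circle, so these lists say nothing here of those cells. Of 6 activity-induced genes, Homer1 alone had circles, with 573, 511 and 612 SRPBM in Control and 1043, 684 and 857 in Pilo (log2 fold change 0.58, unadjusted p 0.0271, limma adjusted p 0.766). The part of cell composition in the Adgrb3 values was not tested.

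The hosts whose sums ran most like those of Adgrb3 over the 6 libraries, after rescaling to equal totals and on the log2 scale, were Kmt2c, Kif3b and Fat3, among 1187 hosts above 0 in every library. Their Pearson correlations with Adgrb3 were 0.976, 0.950 and 0.937, and Spearman's rho was 0.886, 0.600 and 0.829. These points share 6 libraries and the group difference, and the 3 are the top of many, so no p is given. Kmt2c, a histone methyltransferase gene with 12 circles, gave 51.3, 83.7 and 233 SRPBM in Control and 186, 272 and 329 in Pilo, with Control 3 above Pilo 1 as in Adgrb3. Fat3, an atypical cadherin gene with 4 circles, gave 1307, 1339 and 1619 in Control and 1436, 2060 and 2189 in Pilo. Kif3b, a kinesin motor gene, had 1 circle with 17.1 to 69.2 SRPBM.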

How the data were processed

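Total RNA of 6 cortex libraries was depleted of rRNA and sequenced as stranded paired-end libraries by the authors, who identified circRNAs with CIRI on BWA-MEM alignments (genome mm10; versions not given in the sources used here) and ran DESeq2. The deposited values are SRPBM, a signal of back-spliced junction reads that the authors scaled to mapped reads. The 6 deposited files are identical and were read once. Within 0.05 of a whole number, each library's values were multiples of its smallest value divided by 2, taken here as 1 junction read, with 2 reads as the smallest value listed. This reading of depth is inferred, and a value of 0 may stand for 1 read.

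Host IDs were matched to symbols for 3466 of 3469 single hosts. Circle ends were matched to GENCODE M21 exons. The limma test (3.58.1, R 4.3.3, trend, two-sided) ran on log2(SRPBM + 17.1), the smallest value of the table, over all 4271 circles and 2157 host sums above 0 in at least 3 libraries, was tested on simulated data, and was adjusted by Benjamini-Hochberg. Dominant shares were compared by an exact permutation test. Shares of reads carry 95% Wilson intervals for counting error. Mice of a group were separate animals.

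Named circles are the first and second of each host, those in all 6 libraries, and those past the threshold or without overlap; exceptions are stated. The result of 1 marker gene is not reported here. Members, gene lists and tests were chosen with earlier results of these data known. Alternatives covered the pseudocount, filter, scaling, prior, block, threshold and left-out libraries. No pairs of libraries in a group differed by less than counting noise (chi-square per degree of freedom 1.75 to 2.49).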

Additional observations from a re-analysis of the deposited data

How the results depend on the processing

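Of the 4 host sums, those of Adgrb1, Adgrb3 and Adgrl3 kept their direction and stayed under the study's threshold in all alternatives run, with log2 fold changes of 0.57 to 1.02 for Adgrb3 (adjusted p 0.423 to 0.948) 0.22 to 0.66 for Adgrl3 and 0.077 to 1.86 for Adgrb1, while the Adgrl2 sum turned to 0.14 without Pilo 3 (-0.97 to 0.14 over left-out libraries). The circle mmu_circ_0005197 of Adgrb3 kept its direction in all 13 alternatives, at 0.61 to 1.01 (adjusted p 0.359 to 0.978). Its unadjusted p and that of the Adgrb3 sum were above 0.05 without a trend in the prior (0.0793 and 0.0853) and without Control 1 (0.0616 and 0.0740). The count of family circles called higher was 0 when circles had to be above 0 in all libraries, and 0 to 3 with a library left out; called lower, it was 0 to 1. The Adgrl3 circle mmu_circ_0008294 came to 1.47 without Pilo 1 and to 5.11 with a pseudocount of 1 SRPBM (adjusted p 0.267 to 0.978 over the alternatives). Circles near 0 turned sign: Adgrb3 mmu_circ_0005196 to -0.069 with rescaling and -0.37 to 0.37 with a library left out (below 0 without Control 1 or Pilo 2); Adgrl3 mmu_circ_0008289 to -0.18 with rescaling and -0.37 to 0.34 (below 0 without Control 3 or Pilo 3); Adgrl3 mmu_circ_0008290 to -0.41 to 0.38 (above 0 without Control 1 or Pilo 2); and Adgrl3 mmu_circ_0008292 to -0.44 to 0.65 (below 0 without Control 2 or Pilo 3). The difference in dominant share of Adgrb3 ranged from -4.25 to 5.44 percentage points over left-out libraries and turned to -4.25 without Control 3 and -2.22 without Pilo 1. Over all circles, 54 called higher and 13 called lower became 121 and 47 with the smaller pseudocount, 88 and 42 with 1 SRPBM, 1 and 0 with values above 0 in all libraries, 150 and 46 at a log2 fold change of 1; and over all hosts, 33 and 8 became 60 and 17, 1 and 0 with values above 0 in all libraries, and 91 and 18 at a log2 fold change of 1. The cause was not tested.

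The replicate numbers did not pair the libraries (correlations of same-numbered deviations 0.010 to 0.019). With the number as a block, the called circles stayed at 1 and 0 in the family and 54 and 13 in the table, hosts at 33 and 8, and unadjusted p was 0.0170 for mmu_circ_0005197 and 0.00326 for the Adgrb3 sum. Count models were not run, since whole reads could be inferred but not established. Depth limits most of the family, as 31 of 52 circles had at most 10 reads.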
